A study of Mus musculus with 24 samples.

Results

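Dppa2, Dppa4 and Dppa5a (developmental pluripotency associated genes) were read in RNA-seq of mouse CGR8 embryonic stem cells (ESCs). The 3 genes were taken by symbol from a table of 54242 symbols, and all 3 were among the 16447 genes expressed highly enough to be tested. They were chosen by their levels in the same 8 groups described here. Their differences are therefore given as a description with standard errors, without a p-value. The 24 libraries fall into 8 groups of 3. Cells were transfected with a control siRNA (si-CTL) or an siRNA against Rsl24d1 (si-Rsl24d1), a factor of large ribosomal subunit assembly, and were collected in medium with serum and LIF (day 0) or after 4 days of 10 nM retinoic acid (RA, day 4). Each of these 4 states was measured without and with a rescue, in which doxycycline induces an ectopic Rsl24d1 open reading frame, which the symbol does not separate from the endogenous gene. The methods describe a puromycin-selected CGR8 line that carries this construct and is grown with or without doxycycline, whereas the labels name an empty vector for the cells without rescue, so it is not known here whether these carried the construct. The labels and the methods also differ on the library kit (poly-A or total RNA), the medium, the hours after transfection and the presence of LIF during RA treatment. Nothing in the labels says whether the 3 libraries of a group came from separate cultures. The paper calls the 3 points per condition in its plot of gene signature scores biological replicates, without saying how they were grown. Errors and p-values measure the spread between these libraries, and how far it covers separate cultures is not known here.

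Dppa2 and Dppa4 are small nuclear proteins with a SAP domain that bind each other and chromatin. In ESCs they occupy promoters that carry both active and repressive histone marks, together with the COMPASS and Polycomb repressive complex 2 (PRC2) enzymes that write these marks, and they activate Dux and, through it, genes of the 2-cell stage embryo. Dppa5a, also called Esg1, is a small protein with a KH domain, a fold that binds RNA, and belongs to a family with the oocyte proteins Ooep and Khdc3. All 3 are classical markers of the early embryo, of pluripotent cells and of germ cells.

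Rsl24d1 itself was the check of the siRNA. At day 0 without rescue, it was at 148, 140 and 136 TPM (a length-corrected transcript share scaled to a sum of 1000000 in each library) in si-CTL cells and at 36.6, 37.9 and 32.7 TPM in si-Rsl24d1 cells, 25.3% of the control mean. With rescue, it was at 158, 150 and 147 TPM against 103, 96.1 and 121 TPM. At day 4 without rescue, the si-CTL libraries were at 95.9, 101 and 96.7 TPM and those labelled si-Rsl24d1 at 89.3, 96.3 and 99.8 TPM, so the groups overlapped. At day 4 with rescue, the libraries labelled si-Rsl24d1, at 127 to 134 TPM, lay above the si-CTL libraries, at 114 to 126 TPM. The depletion was thus visible in the transcript at day 0 but not at day 4, and every direction given for the siRNA at day 4 rests on the label alone. The table gives no read number, so sequencing depth is unknown, and between 23415 and 26428 symbols were above 0 in a library. The ESC markers Pou5f1, Sox2, Nanog, Zfp42 and Esrrb were expressed in all groups, and the summed level of 10 pluripotency markers was 2720 to 3430 TPM at day 0 and 1930 to 2140 TPM at day 4.

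On the GRCm38 build, Dppa4 spans chr16:48283733-48294237 and Dppa2 spans chr16:48303908-48319723, both on the plus strand and 9.67 kb apart. Dppa5a lies on the minus strand at chr9:78367052-78368177 and has 3 exons. The longest coding sequences of Dppa2, Dppa4 and Dppa5a hold 301, 296 and 118 codons. The deposited values are per symbol and not per transcript, and Dppa4 also has a protein-coding transcript of 244 codons. To identify the genes, the first 60 bases of each longest coding sequence are shown with the start codon in capitals, read from the gencode vM21 transcripts. In Dppa2 and Dppa4 this stretch crosses an intron, from 48310507 to 48311601 and from 48283818 to 48287913 on chromosome 16, and in Dppa5a it lies in 1 exon, from 78368040 to 78368099 on chromosome 9.
Dppa2: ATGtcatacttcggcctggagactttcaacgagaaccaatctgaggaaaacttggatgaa
Dppa4: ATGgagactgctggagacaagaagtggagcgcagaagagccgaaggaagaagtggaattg
Dppa5a: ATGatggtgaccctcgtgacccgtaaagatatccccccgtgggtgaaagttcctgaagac

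The members have near copies elsewhere in the genome, and Salmon, which made the deposited values, divides reads between transcripts that share sequence. Of the 31-base words in their transcripts, 33.8% for Dppa2, 40.1% for Dppa4 and 57.2% for Dppa5a also occur in transcripts of other genes. The unprocessed pseudogenes Dppa5b (chr9:78245550-78246135) and Dppa5c (chr9:78271998-78272583) are identical to each other and match the Dppa5a coding sequence at 314 of 346 aligned bases, or 90.8%. Bases 211 to 300 of the Dppa5a coding sequence, counted from the A of the start codon, are shown beside both copies. This stretch of 90 bases, which crosses an intron in Dppa5a, shows some of the places where a read could tell Dppa5a from its copies. The 6 positions that differ in it, of 32 over the whole alignment, are in capitals, and long runs between them are common to the 3 genes.
Dppa5a: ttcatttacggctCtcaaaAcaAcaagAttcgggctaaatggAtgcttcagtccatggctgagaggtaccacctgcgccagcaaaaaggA
Dppa5b: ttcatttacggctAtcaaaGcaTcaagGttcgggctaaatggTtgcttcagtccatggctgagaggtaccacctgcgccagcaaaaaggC
Dppa5c: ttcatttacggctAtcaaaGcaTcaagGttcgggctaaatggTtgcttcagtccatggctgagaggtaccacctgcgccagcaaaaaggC

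Despite the shared sequence, few reads were assigned to the copies. Dppa5b was at 0 to 1.45 TPM over the 24 libraries. The 6 pseudogenes in the table that share at least 30 of these words with Dppa5a summed to 0.33 to 2.87 TPM, at most 0.0741% of the total with Dppa5a. The 6 that share words with Dppa2 summed to at most 1.1% of the total. Dppa4 has the most expressed copy, the processed pseudogene Gm14058 at 6.06 to 12.3 TPM, and its 2 copies made up 4.75% to 7.2% of the total with Dppa4. With the copies added to each gene, the differences described below moved by at most 0.01 on the log2 scale. Pigp, a protein-coding gene of glycosylphosphatidylinositol anchor synthesis, shares 22.8% of the words of Dppa5a. It was at 28.9 TPM in si-CTL cells without rescue at day 0 and at 70.8 TPM at day 4, and its part in the Dppa5a values was not tested.

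Dppa2 was lower at day 4 than at day 0 in all groups, and within day 4 it was higher in the cells labelled si-Rsl24d1. In si-CTL cells without rescue, it was at 128, 127 and 119 TPM at day 0 and at 58.2, 61.6 and 55.0 TPM at day 4. With the Rsl24d1 siRNA and no rescue, it was at 102, 109 and 102 TPM at day 0 and at 75.2, 80.1 and 88.7 TPM at day 4. Without rescue, the si-CTL libraries thus lay above the si-Rsl24d1 libraries at day 0 and below them at day 4. With rescue, si-CTL cells were at 120, 115 and 106 TPM at day 0 and at 67.7, 59.2 and 61.6 TPM at day 4. The si-Rsl24d1 cells with rescue were at 98.5, 101 and 112 TPM at day 0 and at 83.3, 81.0 and 76.6 TPM at day 4, close to the cells without rescue on both days. In the order of the 8 group means, only 2 neighbouring pairs had libraries that did not overlap. These were the step from the lowest day 0 group (6.71 ± 0.10 on the log2(TPM + 1) scale, SD, n = 3) to the highest day 4 group (6.36 ± 0.12), and the step from the rescued cells labelled si-Rsl24d1 (6.34 ± 0.06) to the rescued si-CTL cells (5.99 ± 0.10) at day 4.

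Dppa4, the partner of Dppa2, varied least of the 3 genes. In si-CTL cells without rescue, it was at 157, 169 and 168 TPM at day 0 and at 134, 139 and 129 TPM at day 4. With the Rsl24d1 siRNA and no rescue, its level was 142, 140 and 143 TPM at day 0 and at 141, 131 and 136 TPM at day 4. The si-CTL cells at day 0 therefore stood above the other groups without rescue, which lay together. With rescue, the si-CTL libraries were all at 168 TPM at day 0 and at 138, 128 and 132 TPM at day 4. The rescued si-Rsl24d1 libraries were at 150, 150 and 148 TPM at day 0 and at 145, 141 and 138 TPM at day 4. The 8 group means ran from 7.06 ± 0.05 to 7.40 ± 0.00 (log2(TPM + 1), SD, n = 3), and the 5 lowest groups overlapped from each to the next.

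Dppa5a was among the most abundant transcripts of these cells and held a higher rank at day 4. In si-CTL cells without rescue, it was at 2513, 2680 and 2667 TPM at day 0, places 49 to 53 among all symbols, and at 5370, 5370 and 5299 TPM at day 4, places 15 and 16. Unrescued si-Rsl24d1 libraries were at 2229, 2203 and 2275 TPM at day 0 and at 5193, 4367 and 4382 TPM at day 4. All 12 day 4 libraries lay above all 12 day 0 libraries. The share of tested genes for which all 12 libraries of each day separate was not computed. Within the single comparisons of day 4 with day 0, groups did not overlap for 66.3% to 72.5% of tested genes. With rescue, si-CTL cells were at 2874, 2978 and 3230 TPM at day 0 and at 4951, 5061 and 4780 TPM at day 4. The rescued si-Rsl24d1 cells were at 2888, 2763 and 2406 TPM at day 0 and at 4896, 4703 and 5230 TPM at day 4. At day 4, the mean level was 0.535% of all TPM in si-CTL cells without rescue. Of neighbouring groups in the order of levels, those that did not overlap were si-CTL without rescue and the next group at day 4, the lowest day 4 and highest day 0 groups, and the si-CTL and si-Rsl24d1 groups without rescue at day 0.

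**Figure D1:**
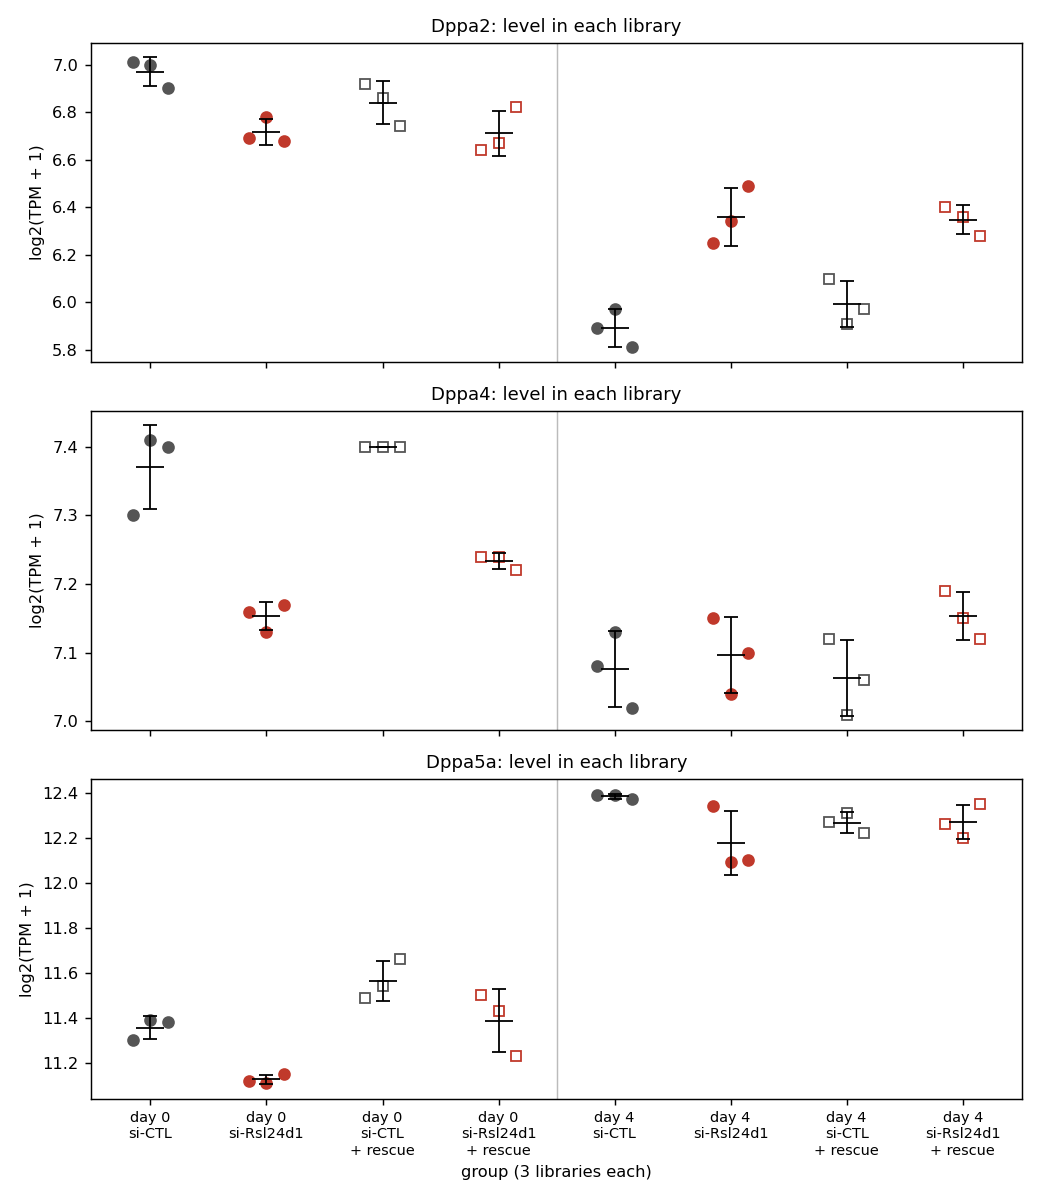
Level of Dppa2, Dppa4 and Dppa5a (log2(TPM + 1), 1 panel per gene with its own axis range) in each of the 24 libraries, grouped by day, siRNA and rescue. Grey symbols are si-CTL and red symbols si-Rsl24d1, filled circles are without and open squares with rescue, and bars give the mean and SD of 3 libraries. Dppa2 is lower and Dppa5a higher in all day 4 groups, and Dppa4 stays between 7.01 and 7.41.

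Because Dppa2 and Dppa4 act as a pair, their ratio was taken within each library, where scaling between libraries has no part. TPM are corrected for transcript length, so the genes can be compared with each other. At day 0 without rescue, Dppa2 was at 75.5% of the level of Dppa4 with the control siRNA and at 73.5% with the Rsl24d1 siRNA (geometric means of 3 libraries). At day 4, it was at 43.5% in si-CTL cells and at 59.8% in those labelled si-Rsl24d1. The log2 ratio at day 4 ran from -1.23 to -1.17 over the si-CTL libraries and from -0.90 to -0.62 over those labelled si-Rsl24d1, with no overlap. How many other pairs of genes have ratios that do not overlap was not computed. With rescue, Dppa2 was at 67.5% and 69.4% of Dppa4 at day 0, and at 47.3% and 56.7% at day 4, for si-CTL and si-Rsl24d1 cells. The same ratio for Dppa5a over Dppa4 was, without rescue, 15.9 for si-CTL and 15.8 for si-Rsl24d1 at day 0, and 39.9 and 34.1 at day 4.

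**Figure D2:**
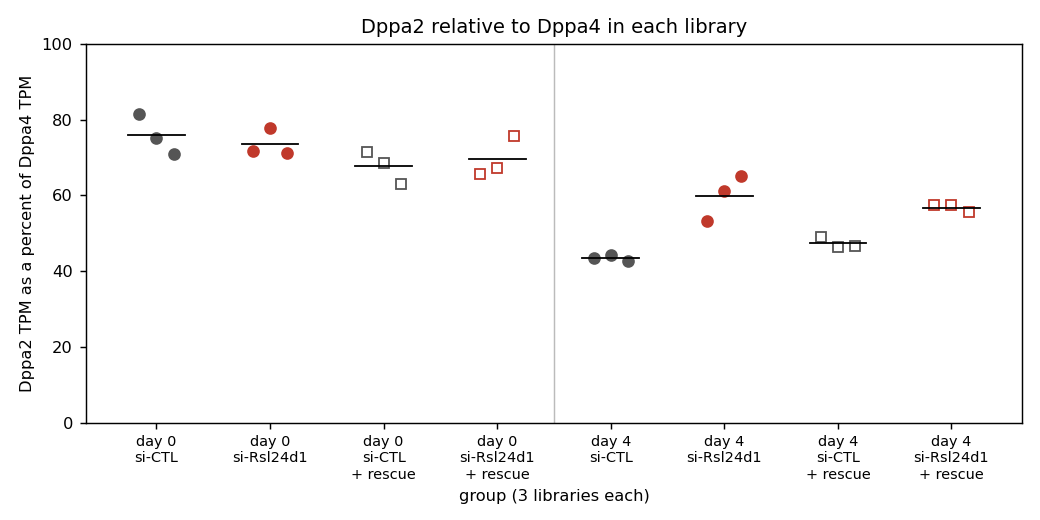
Dppa2 TPM as a percent of Dppa4 TPM in each of the 24 libraries, by group. Grey symbols are si-CTL and red symbols si-Rsl24d1, open squares are with rescue, and lines are the means of 3 libraries. The mean of each day 0 group lies above that of each day 4 group, although single libraries of the days overlap, and at day 4 all si-CTL libraries lie below all si-Rsl24d1 libraries.

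For RA, the question is how each gene differs between day 4 and day 0 with the same siRNA and rescue. Per the methods, day 4 cells were also grown at low density without LIF, and for 4 more days. The effect of RA cannot be told apart from these. Differences are on the log2(TPM + 1) scale, and a gene is called where the adjusted p from limma is below 0.01 and the change is over 1.8-fold, or 0.848 on this scale. In si-CTL cells without rescue, Dppa2 fell by 1.08 (standard error 0.07) to 46.9% of its day 0 mean, Dppa4 differed by -0.30 (standard error 0.04), at 81.3%, and Dppa5a rose by 1.03 (standard error 0.07), a 2.04-fold higher TPM. Of the 3 members 2 were called, where 15.0% of all tested genes were. The libraries of both days did not overlap for all 3 members, as for 72.5% of tested genes. The median of all tested genes in this comparison was -0.10, so that relative to it Dppa2 stood at -0.98 and Dppa5a at 1.13.

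In cells labelled si-Rsl24d1 without rescue, the day 4 difference was -0.35 (standard error 0.07) for Dppa2, -0.06 (standard error 0.04) for Dppa4 and 1.05 (standard error 0.07) for Dppa5a. Dppa2 was at 78.2% of its day 0 mean. The libraries of both days did not overlap for Dppa2 and Dppa5a, as for 66.3% of tested genes. With rescue, si-CTL cells gave -0.85, -0.34 and 0.70 for Dppa2, Dppa4 and Dppa5a, and cells labelled si-Rsl24d1 gave -0.36, -0.08 and 0.88. The Dppa2 difference was thus larger in both si-CTL comparisons than in both comparisons labelled si-Rsl24d1, whereas Dppa5a was higher at day 4 in each of the 4. Dppa5a was the member called in si-Rsl24d1 cells without rescue, where 14.1% of genes were called, and with rescue, where 14.9% were. No member was called in rescued si-CTL cells, where 15.6% of genes were and Dppa2 lay at the fold threshold. In both rescued comparisons, the libraries of the days did not overlap for all 3 members, as for 71.5% of genes with the control siRNA and 70.2% with the Rsl24d1 siRNA. The RA and siRNA comparisons share libraries, so their values are not independent of each other.

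**Figure D3:**
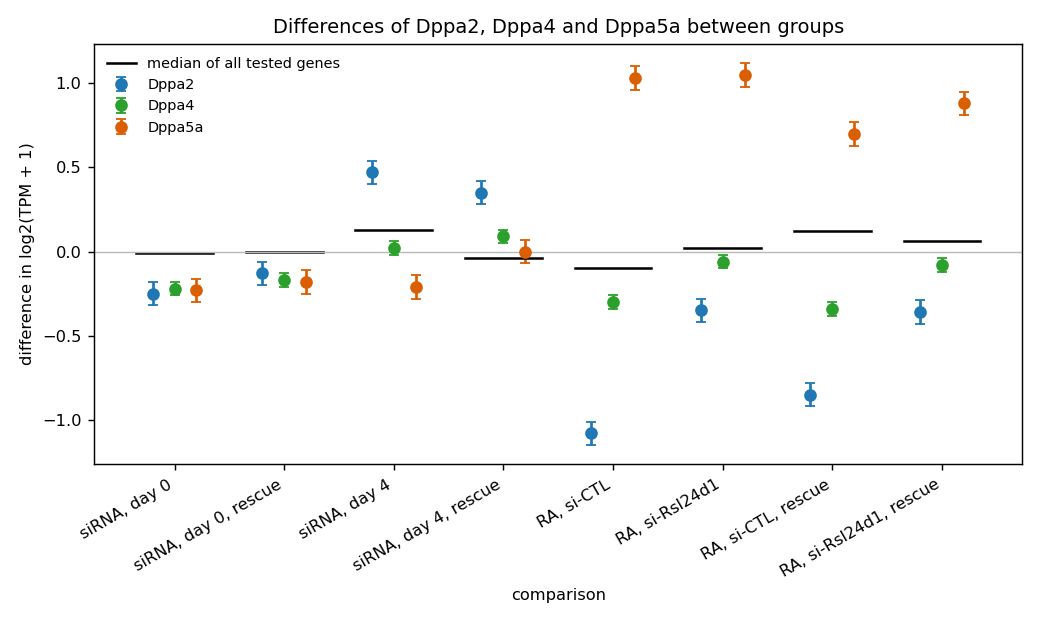
Difference in log2(TPM + 1) of Dppa2 (blue), Dppa4 (green) and Dppa5a (orange) in the 4 comparisons of si-Rsl24d1 with si-CTL and the 4 of day 4 with day 0. Points are the fitted differences, bars their standard errors and black lines the median of all tested genes. The siRNA differences of Dppa2 lie below 0 at day 0 and at 0.47 and 0.35 at day 4.

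For the siRNA, cells labelled si-Rsl24d1 were compared with si-CTL cells of the same day and rescue. At day 0 without rescue, all 3 members were slightly lower in si-Rsl24d1 cells, with differences of -0.25 (standard error 0.07) for Dppa2, -0.22 (0.04) for Dppa4 and -0.23 (0.07) for Dppa5a, with means at 83.7%, 85.9% and 85.3% of the control. Groups did not overlap for any of the 3, as for 51.1% of tested genes, and no member was past the thresholds that 4.18% of genes passed. With rescue at day 0, the differences were -0.13, -0.17 and -0.18, and Dppa4 was the member whose groups did not overlap, as for 33.0% of genes, with 1.36% of genes called. The differences with rescue lay 0.12, 0.05 and 0.05 above those without for Dppa2, Dppa4 and Dppa5a, which was not tested.

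At day 4 without rescue, Dppa2 was 0.47 (standard error 0.07) higher in the cells labelled si-Rsl24d1, at 140% of the control mean. Dppa4 differed by 0.02 (standard error 0.04) and Dppa5a by -0.21 (standard error 0.07), at 86.9% of the control mean. The median of all tested genes was 0.13 here, and relative to it the members stood at 0.34, -0.11 and -0.34. With median of ratios scaling, Dppa4 changed direction, to -0.15. Groups did not overlap for Dppa2 and Dppa5a, as for 48.4% of genes, and no member was past the thresholds that 1.63% of genes passed. With rescue, Dppa2 was 0.35 (standard error 0.07) higher, Dppa4 0.09 (0.04) higher, and Dppa5a differed by 0.00 (0.07). Groups did not overlap for Dppa2 and Dppa4, as for 35.6% of genes, and 0.730% of genes were called. The day 4 siRNA difference minus that at day 0 was 0.73 (standard error 0.09) for Dppa2, 0.24 for Dppa4 and 0.02 for Dppa5a without rescue, and 0.48, 0.26 and 0.18 with rescue.

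Between rescued and unrescued cells, Dppa5a differed most of the members at day 0. In the day 0 si-Rsl24d1 cells, where Rsl24d1 was 3.00-fold higher with rescue, Dppa2 differed by -0.01, Dppa4 by 0.08 and Dppa5a by 0.26 (standard error 0.07), against a median of -0.11 for all genes. In si-CTL cells at day 0, where Rsl24d1 differed by 0.10, the values were -0.13, 0.03 and 0.21, so the rescued libraries had higher Dppa5a with either siRNA. At day 4, the differences were -0.02, 0.06 and 0.09 in cells labelled si-Rsl24d1, and 0.11, -0.01 and -0.12 in si-CTL cells. No member was called by limma, and few genes were, 0.280% and 0.0851% for si-Rsl24d1 cells at day 0 and day 4 and 0% and 0.0547% for si-CTL cells. In the comparison with no call, 6739 genes had an unadjusted p below 0.05.

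The genes whose pattern was most like each member were ranked by Pearson's r over the 24 libraries, which share the difference between days. For Dppa2 they were Snx5 (r = 0.979), Gid8 (0.973), Nphs1 (0.972), Eed (0.969) and Egr1 (0.968). Within the 12 libraries of 1 day, r was 0.73 to 0.95 at day 0 and 0.88 to 0.96 at day 4. Snx5 is a sorting nexin, Gid8 belongs to a ubiquitin ligase, Nphs1 encodes nephrin, Eed is a PRC2 subunit and Egr1 an immediate early transcription factor. For Dppa4 they were Slc25a5 (r = 0.963), an ADP/ATP carrier, Nr0b1 (0.961), a nuclear receptor of ESCs, Zmat4 (0.958), Psmc4 (0.950), a proteasome subunit, and Pdhb (0.949), a pyruvate dehydrogenase subunit. For Dppa5a they were Ppib (r = 0.994), a peptidyl-prolyl isomerase of the endoplasmic reticulum, Spcs1 (0.989), a signal peptidase subunit, Cyct (0.986), the testis cytochrome c, Rpl39l (0.986), a paralog of a ribosomal protein gene, and Crxos (0.986), a homeobox gene. Within 1 day, r for the genes named for Dppa4 was 0.92 to 0.96 at day 0 and 0.67 to 0.85 at day 4. For those named for Dppa5a, it was 0.84 to 0.96 at day 0 and 0.76 to 0.88 at day 4. Among the members, Dppa2 and Dppa4 had an r of 0.825 over all libraries and of 0.62 and 0.60 within day 0 and day 4. Dppa5a ran against Dppa2 over all libraries (r = -0.876), with an r of 0.10 within day 0 and of -0.67 within day 4. Dppa4 and Dppa5a had an r of -0.611 over all libraries, of 0.78 within day 0 and of 0.04 within day 4.

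None of the tested genes next to the members was called at day 4 in si-CTL cells. After Dppa2 on chromosome 16 comes Morc1, a germ line repressor of transposons 112 kb away, which differed by -0.08 (standard error 0.06, limma adjusted p = 2.7e-01) in the unrescued si-CTL comparison. Gm8670 and Dzip3 behind it differed by 0.08 and 0.04. On the other side of Dppa4, the nearest tested genes are Nectin3, Gm4737 and Plcxd2, the nearest 1790 kb away, at 0.11, -0.55 and -0.02. At day 4 without rescue, Morc1 was 0.38 higher in cells labelled si-Rsl24d1 (adjusted p = 1.1e-04 from limma), Dzip3 0.45 higher (adjusted p = 1.3e-03) and Nectin3 0.40 higher (adjusted p = 8.4e-04), none past the fold threshold. Dppa2 was at 0.47 and Dppa4 at 0.02 there, and the median of all tested genes was 0.13. Gm8670, Gm4737 and Plcxd2 were at 0.01, -0.06 and 0.35. With rescue at day 4, the mean level of Dzip3 was 5.11 in cells labelled si-Rsl24d1 and 5.10 in si-CTL cells on the log2(TPM + 1) scale. In the same order, Nectin3 was at 5.35 and 5.38 and Morc1 at 5.66 and 5.32. Next to Dppa5a on chromosome 9, Ooep lies 7.93 kb away and was 0.75 higher at day 4 in si-CTL cells (standard error 0.06, adjusted p = 5.1e-10 from limma), below the fold threshold. Ddx43 and Cgas behind Ooep were at -0.70 and -0.39, and Dppa5b, Gsta4 and C920006O11Rik on the other side at 0.29, -0.17 and 0.11.

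Dppa3, the gene of the oocyte protein Stella and the other Dppa symbol above the filter besides Dppa5b, rose by 2.05 at day 4 in unrescued si-CTL cells (limma adjusted p = 9.1e-16). Without rescue, its siRNA difference was -0.44 at day 0 (adjusted p = 1.1e-05 from limma) and -0.56 at day 4 (adjusted p = 1.9e-06), both below the fold threshold, and thus on the side of Dppa5a and not of Dppa2 at day 4. Of the KH domain relatives, Ooep and Khdc3 were tested. At day 4 in unrescued si-CTL cells, both passed the adjusted p alone, and Ooep passed the fold threshold as well, at 0.88, with median of ratios scaling. In unrescued cells labelled si-Rsl24d1, Ooep rose by 0.89 between the days (limma adjusted p = 3.7e-11). The siRNA difference of Ooep was -0.43 at day 0 and -0.29 at day 4, without rescue.

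The members belong to a catalogue of ES cell associated transcripts, of which 9 more were tested. At day 4 in si-CTL cells without rescue, 1 of the 9 rose and 2 fell, where 6.77% of all tested genes rose and 8.24% fell. The median of the 9 was 0.37, against -0.10 for all genes. Sox15, a SOX family factor, rose by 2.25 (adjusted p = 2.3e-17 from limma). L1td1, an RNA-binding protein derived from a LINE-1 element, changed by -1.69 (adjusted p = 5.9e-13), and Dnmt3l, a cofactor of de novo DNA methylation, by -1.13 (adjusted p = 4.5e-16). Nanog, at 0.79, Fbxo15, at 0.52, Khdc3, at 0.45, and Tdrd12, at 0.37, passed the adjusted p but not the fold threshold, and Eras and Gdf3 passed neither. With median of ratios scaling, Nanog was at 0.93 and past the fold threshold. Called genes of this set thus lay on both sides, as Dppa2 and Dppa5a did.

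**Figure D4:**
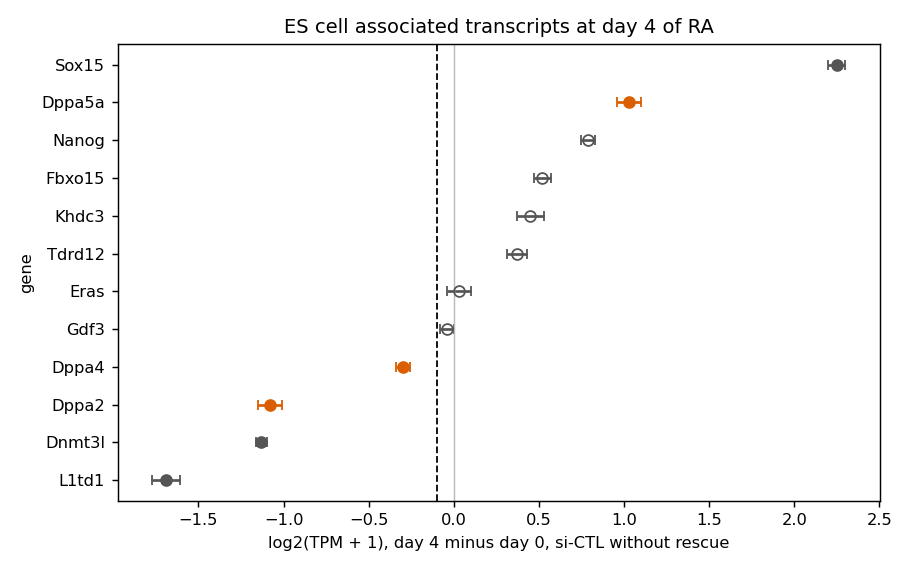
Difference in log2(TPM + 1) between day 4 and day 0 in si-CTL cells without rescue for the 12 ES cell associated transcripts, with standard errors. Orange points are Dppa2, Dppa4 and Dppa5a, drawn filled whether called or not, filled grey points are other called genes, open points are other genes not called, and the dashed line is the median of all tested genes. Values run from -1.69 for L1td1 to 2.25 for Sox15.

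With the siRNA at day 0 without rescue, none of the 9 was called, but 6 were lower and 1 higher by the adjusted p alone, and 7 had an unadjusted p below 0.05 in limma, as had 7835 of all 16447 tested genes. Eras, an ESC Ras protein, was at -0.68 (adjusted p = 2.3e-07), Tdrd12 at -0.44, L1td1 at -0.43 and Khdc3 at -0.41, and Sox15 was at 0.49. At day 4 without rescue, again none was called, 2 were higher and 3 lower by the adjusted p alone, and 8 had an unadjusted p below 0.05, as had 8741 of all 16447. Tdrd12 (0.35, adjusted p = 1.5e-04 from limma) and L1td1 (0.38, adjusted p = 9.1e-04) were higher, as Dppa2 was, and Sox15 (-0.41), Eras (-0.47) and Gdf3 (-0.25) were lower. The test of the siRNA effect at day 4 against that at day 0 called 5.61% of all genes and, of these 9, Sox15, at -0.90 (adjusted p = 2.0e-08 from limma). L1td1, at 0.82, and Tdrd12, at 0.79, were below the fold threshold, but leaving out 1 library gave 0.76 to 0.91 for L1td1. It passed in 4 of these 12 fits, without replicate 2 of either day 0 group or of day 4 si-CTL, and without replicate 1 of the day 4 group labelled si-Rsl24d1.

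Genes of the 2-cell programme, which Dppa2 and Dppa4 are known to activate through Dux, had called members with the siRNA on both days, all of them higher. Of 19 listed genes 16 were tested. Dux itself, under the symbol Duxf3, was below the filter and not tested, with group means of 0.115 to 0.715 TPM. At day 0 without rescue, 6 of the 16 rose, all of them Zscan4 genes, where 3.40% of all tested genes rose. The median of the 16 was 0.71, against -0.01 for all genes. Zscan4f rose by 1.21 (adjusted p = 1.0e-08 from limma), Zscan4e by 1.15, Zscan4d by 1.11 and Zscan4c by 1.04. With rescue at day 0, none was called by limma, where 1.17% of genes rose, and 15 had an unadjusted p below 0.05, as had 5396 of all 16447. The median was 0.38, and Zscan4f, at 0.80, passed the fold threshold at 0.87 with 0.1 added to the TPM and at 0.86 without the third rescued si-Rsl24d1 library. At day 4 without rescue, 4 rose, where 1.45% of genes did, led by Zscan4e (1.18, adjusted p = 1.4e-07) and Zscan4a (1.17), with a median of 0.54 against 0.13, and Usp17lb was at -0.20. At day 4 with rescue, 9 rose, where 0.693% of genes did, led by Zscan4e (1.43, adjusted p = 2.5e-08) and Zscan4f (1.39), with a median of 0.96. The Zscan4 genes are near-identical copies, as are those of the Usp17l family, so the division of reads within each family is uncertain.

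Set beside the members, the called 2-cell genes were higher at day 0 in si-Rsl24d1 cells, where Dppa2 and Dppa4 were lower, and at day 4 in cells labelled si-Rsl24d1, where Dppa2 was higher. At day 4 in si-CTL cells without rescue, where Dppa2 was lower than at day 0, 10 of the 16 rose, as did 6.77% of all tested genes. Sp110 rose by 1.88, Tmem92 by 1.78, Usp17lb by 1.60 and Zscan4f by 1.44, and the median of the 16 was 0.97, against -0.10 for all genes. In the test of the siRNA effect at day 4 against that at day 0, 1 of the 16 was called, Usp17lb at -0.92 (adjusted p = 4.9e-06 from limma), and it missed the fold threshold, at -0.65, with 2 added to the TPM. By the adjusted p alone, Usp17la (-0.63), Usp17le (-0.60) and Zscan4d (-0.49) also had a lower siRNA effect at day 4.

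**Figure D5:**
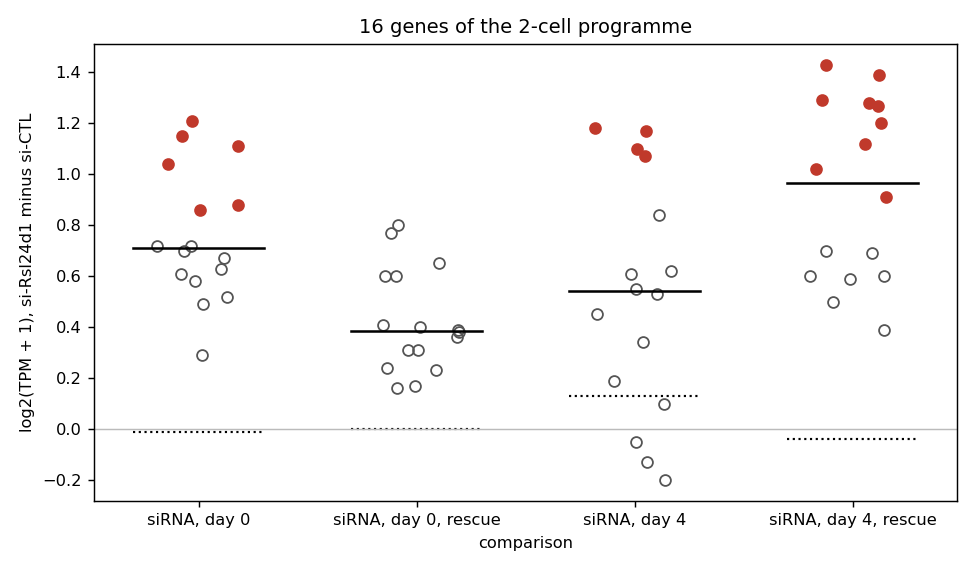
Difference in log2(TPM + 1) between si-Rsl24d1 and si-CTL cells for 16 genes of the 2-cell programme, in the 4 comparisons by day and rescue, with points spread sideways at random. Red points are called genes, open points are not called, black lines are the medians of the 16 genes and dotted lines those of all tested genes. The medians are 0.71 and 0.38 at day 0 and 0.54 and 0.96 at day 4, without and with rescue.

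Of 10 COMPASS and PRC2 genes, 2 fell at day 4 in si-CTL cells without rescue, where 8.24% of all tested genes did. Cxxc1, the CpG-binding subunit of a COMPASS complex, changed by -1.17 (adjusted p = 1.2e-12 from limma) and Eed by -0.98 (adjusted p = 2.6e-14). Kmt2b (-0.68), Kmt2a (-0.59), Dpy30 (-0.56), Wdr5 (-0.43) and Ezh2 (-0.21) passed the adjusted p alone, and Ash2l, Rbbp5 and Suz12 did not. The median of the 10 was -0.50, against -0.10 for all genes. In rescued si-CTL cells, the median of the 10 was -0.02, against 0.12 for all genes. There, 3 were higher and 4 lower by the adjusted p, and 1 was called, as a lower gene, where 15.6% of all genes were called. With the siRNA, none was called on either day without rescue. At day 0 and day 4, 6 and 7 of the 10 had an unadjusted p below 0.05 in limma, as had 7835 and 8741 of all 16447 genes, and Eed was at -0.27 at day 0 and 0.28 at day 4, on the same sides as Dppa2. Of 9 genes of the SUMO pathway, which modifies Dppa2 through the ligase Pias4, none was called at day 4 in unrescued si-CTL cells. All 9 had an unadjusted p below 0.05 in limma, as had 11773 of all 16447 genes, and of the 9, 8 were lower and 1 higher. Among the lower genes were Sae1 at -0.61 (adjusted p = 1.6e-13 from limma), Sumo3 and Uba2 at -0.60 and Pias4 at -0.38. The mean log2(TPM + 1) of Senp7 went from 2.21 to 2.53. With the siRNA at day 0 without rescue, none was called by limma, and 6 were lower and 2 higher at an unadjusted p below 0.05. The median of the 9 was -0.13, with Sae1 at -0.26, Pias4 at -0.24 and Senp7 at 0.68. Nkx2-5 and Syce1, loci known to need Dppa2 or Dppa4 for later activation, were 0.28 and 0.65 higher at day 4 in si-CTL cells, below the fold threshold. In unrescued cells labelled si-Rsl24d1 at day 4, Nkx2-5 was 0.56 higher (adjusted p = 6.7e-05 from limma), or 1.13 and past the fold threshold with 0.1 added to the TPM, and Syce1 was at -0.46 (adjusted p = 4.9e-05). With rescue, Nkx2-5 was at 0.17 (adjusted p = 2.4e-01 from limma) and Syce1 at -0.14 (adjusted p = 2.0e-01).

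Summed levels of markers of other cell types differed between the groups in which Dppa2 and Dppa5a differed. In bulk RNA, fewer cells that express a gene and less RNA per cell cannot be told apart. The summed level of 6 fibroblast markers was 37.3 to 46.7 TPM in si-CTL cells without rescue at day 0, 92.6 to 101 TPM at day 4, and 174 to 242 TPM at day 4 in cells labelled si-Rsl24d1. For 6 primitive endoderm markers, the same groups were at 4.55 to 6.10, 14.8 to 19.4 and 29.6 to 37.2 TPM. For 6 germ cell markers, they were at 64.8 to 72.2, 147 to 154 and 126 to 145 TPM, for 6 neural markers at 93.5 to 101, 37.2 to 37.6 and 49.3 to 60.6 TPM, and for 6 trophoblast markers at 18.0 to 18.7, 13.1 to 14.0 and 23.7 to 29.5 TPM. Single genes made up much of the last 3 sums. Dab2 made up most of the primitive endoderm sum, with means of 3.83, 12.4 and 23.5 TPM in the same groups. From day 0 to day 4 in unrescued si-CTL cells, Dazl went from 5.87 to 71.2 TPM, Tubb3 from 65.8 to 15.8 and Hand1 from 14.0 to 7.54. Some genes went against their sums. Thy1 (fibroblast) went from 6.42 to 1.79 TPM and Sox7 (primitive endoderm), a low gene, from 0.324 to 0.269. Prdm1 (germ cell) went from 8.42 to 6.35, Pax6 (neural) from 8.20 to 9.53 and Gata3 (trophoblast) from 0.674 to 2.64. No marker on these lists was at 0 in all libraries of a group, and the part of such cells in the values of Dppa2, Dppa4 and Dppa5a was not tested.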

How the data were processed

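RNA-seq libraries were sequenced on an Illumina instrument. Per the methods, the authors quantified the reads with Salmon on a gencode index of protein-coding genes and summarised them per gene with tximport, although the deposited table also lists pseudogenes. The processing notes of the submitters name STAR 2.7.8a, Salmon 1.4.0 and a human build for these mouse samples. The authors deposited log2(TPM + 1) values, 1 column for each of the 24 libraries, which were matched to samples by title. TPM keep no read number, so the depth is unknown, no counting interval can be given, and the precision rests on 3 libraries per group. The added 1 makes the changes of low genes smaller.

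The filter kept genes averaging 0.5 or more over all libraries, and these were fitted with limma-trend (limma 3.58.1, R 4.3.3, one mean for each of 8 groups, two-sided, Benjamini-Hochberg adjustment over all 16447 tested genes within each comparison). A call needed more than 1.8-fold change together with an adjusted p under 0.01. The 3 genes, the gene lists and the comparisons were chosen with earlier results of these data known. Genes named are the 3 members, Rsl24d1, the 5 genes most like each member, the tested genes up to 3 on either side, genes of lists of up to 12, and up to 4 per direction with the largest change among called genes of longer lists. Pigp, the pseudogenes and Gm14058 were named after their values were seen. Alternatives were 0.1 or 2 added to the TPM, no filter or a filter at 1.5, median of ratios scaling, replicate number as a block, each library left out, and, added after the data were seen, the TPM of pseudogene copies added to each member. No 2 libraries held identical values. Coordinates and sequences are from gencode vM21 on GRCm38, where 52259 symbols of the table were found by name. RefSeq promoter entries matched 0 of the 3 genes.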

Additional observations from a re-analysis of the deposited data

Results flagged for a closer look

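The 4 results below were set apart because the siRNA difference took opposite directions, or differed by test, between day 0 and day 4. Without rescue, all 3 Dppa2 libraries of si-Rsl24d1 cells were below the si-CTL libraries at day 0 (-0.25) and above them at day 4 (0.47), a difference of 0.73 that was not tested because the gene was chosen on these levels. With rescue, the Dppa4 libraries did the same (-0.17 and 0.09), a difference of 0.26 that was not tested. Without rescue, groups did not overlap for 51.1% of tested genes at day 0 and for 48.4% at day 4. With rescue, these shares were 33.0% and 35.6%. The share of genes that separate in opposite directions on the 2 days was not computed. For Sox15, limma called the difference between the days without rescue, at -0.90 (adjusted p = 2.0e-08), from 0.49 at day 0 and -0.41 at day 4. For Usp17lb, it called a difference of -0.92 (adjusted p = 4.9e-06), from 0.72 and -0.20, which missed the fold threshold, at -0.65, with 2 added to the TPM. Groups of 3 libraries are too small for a check of single outlying libraries.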

How the results depend on the processing

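With 0.1 added to the TPM, the numbers of called genes were 1224 and 460 for the siRNA at day 0 without and with rescue, 601 for the siRNA at day 4 without rescue, 3796 and 3884 for RA in si-CTL cells without and with rescue, 151 and 41 for rescue in si-Rsl24d1 cells at day 0 and day 4, 34 for rescue in si-CTL cells at day 4 and 1452 for the siRNA by day test. With 2 added, they were 158 and 78 for the siRNA at day 4 without and with rescue and 25 and 8 for rescue in si-Rsl24d1 cells at day 0 and day 4. With median of ratios scaling, they were 166 for the siRNA at day 4 without rescue and 24 for rescue in si-Rsl24d1 cells at day 0, and without a filter 2 for rescue in si-CTL cells at day 4. Without each library in turn, rescue gave 33 to 83 and 9 to 22 called genes in si-Rsl24d1 cells at day 0 and day 4, and 0 to 1 and 1 to 29 in si-CTL cells.

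Of the members, Dppa2 in rescued si-CTL cells (RA, -0.85 in the report) passed the fold threshold at -0.86 with 0.1 added, -1.0 with median of ratios scaling and -0.85 with the pseudogene copies added, and Dppa5a in rescued si-Rsl24d1 cells (RA) missed it at 0.80 with median of ratios scaling. Leaving out each library gave -0.90 to -0.80 and 0.81 to 0.94 for these. Median of ratios scaling turned the direction of Dppa4 for the siRNA at day 4 without rescue (-0.15) and of Dppa2 for rescue, at 0.13 and 0.06 in si-Rsl24d1 cells and 0.02 and -0.03 in si-CTL cells at day 0 and day 4. Leaving out each library turned directions where differences were near 0, with Dppa4 at -0.01 to 0.05 for the siRNA at day 4 without rescue, Dppa5a at -0.04 to 0.04 for the siRNA at day 4 with rescue, Dppa2 at -0.06 to 0.03 and -0.07 to 0.05 for rescue in si-Rsl24d1 cells at day 0 and day 4, and Dppa4 at -0.01 to 0.05 and -0.04 to 0.01 for rescue in si-CTL cells. The cause was not tested. Over all alternatives, 443 other values of the members kept their direction and side of the thresholds.

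The paper used paired t tests for its gene signature scores. In the deposited values, replicate numbers did not pair the libraries (mean correlation of deviations -0.0173 over 84 pairs of the same number, 0.00865 over 168 other pairs). With the replicate block, the siRNA at day 0 gave 685 called genes in place of 687, and no call of a member changed.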
